A study of Mus musculus with 6 samples.

Results

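The microRNAs of the miR-17-92, miR-106a-363 and miR-106b-25 clusters were followed in mouse oviducts and Dicer1-mutant tumors. The members were the 10 strands mmu-miR-17-5p, mmu-miR-20a-5p, mmu-miR-18a-3p, mmu-miR-92a-3p, mmu-miR-106b-5p, mmu-miR-106b-3p, mmu-miR-93-5p, mmu-miR-93-3p, mmu-miR-25-3p and mmu-miR-363-3p (written below without the mouse prefix), chosen by name among 1915 mouse names in the count table. The 3 clusters have 28 named strands in that table, and the other 18 are given beside the members. Small RNA libraries came from 3 primary tumors, labelled ADT tumors, of genotype Dicer1ko/D1693N, and from 3 oviducts of genotype Dicer1+/D1693N. Every sample of both groups therefore carried the D1693N allele of Dicer1, beside a knocked-out allele in the tumors and a normal allele in the oviducts. The labels give oviduct as the tissue of both groups and state no treatment. The sources used here give no age, strain or means of knocking out the allele. Tissue state and genotype changed together and cannot be told apart.

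These clusters are families of related microRNAs cut from shared primary transcripts. They are known for promoting cell growth and survival, and miR-17-92 is transcribed under the control of Myc. Each hairpin is trimmed by Dicer, whose RNase IIIb domain cuts beside the 5p strand and whose RNase IIIa domain cuts beside the 3p strand. D1693N lies in the RNase IIIb domain. Of the 2 strands of a hairpin, the guide is the strand mainly loaded into Argonaute, and the other is the passenger. In the miR-17, miR-18a, miR-20a, miR-93 and miR-106b hairpins the 5p strand is usually named the guide. In the miR-19, miR-25, miR-92a and miR-363 hairpins it is the 3p strand.

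The guides of the 2 kinds also differ in their seed, bases 2 to 8, which pairs with target messenger RNAs. The mature sequences below come from RefSeq on GRCm38.p6 and are written 5′ to 3′ with the seed in capitals. They show that the 4 member guides on 5p arms share the seed AAAGUGC, whose known targets include the cell-cycle inhibitor Cdkn1a. The 3 member guides on 3p arms share AUUGCAC, whose known targets include the pro-apoptotic gene Bcl2l11. Each of the 3 passengers has a seed of its own.
miR-17-5p: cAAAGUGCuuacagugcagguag
miR-20a-5p: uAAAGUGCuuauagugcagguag
miR-106b-5p: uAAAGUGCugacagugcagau
miR-93-5p: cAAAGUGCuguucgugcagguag
miR-25-3p: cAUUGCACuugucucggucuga
miR-92a-3p: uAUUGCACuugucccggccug
miR-363-3p: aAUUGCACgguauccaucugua
miR-18a-3p: aCUGCCCUaagugcuccuucug
miR-106b-3p: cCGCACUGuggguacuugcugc
miR-93-3p: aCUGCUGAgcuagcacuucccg

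The results turn on the 3 hairpins of the miR-106b-25 cluster, which lie within Mcm7, a gene for a DNA replication licensing factor, on the minus strand. Mir106b lies at chr5:138165737-138165818 in an intron, Mir93 at chr5:138165523-138165610 and Mir25 at chr5:138165321-138165404. The last 2 overlap an exon of at least 1 annotated Mcm7 transcript. In the hairpin sequences (RefSeq, GRCm38.p6) the capitals mark the mature 5p strand first and the mature 3p strand second.
Mir106b: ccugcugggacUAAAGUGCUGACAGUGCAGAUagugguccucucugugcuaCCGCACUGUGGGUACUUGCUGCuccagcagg
Mir93: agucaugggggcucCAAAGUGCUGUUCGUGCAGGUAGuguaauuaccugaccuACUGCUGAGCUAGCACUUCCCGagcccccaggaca
Mir25: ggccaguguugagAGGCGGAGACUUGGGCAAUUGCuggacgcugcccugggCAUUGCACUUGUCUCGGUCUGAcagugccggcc

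The miR-17-92 hairpins lie in an exon of the long noncoding RNA Mir17hg, from Mir17 at chr14:115043671-115043754 to Mir92-1 at chr14:115044427-115044506 on the plus strand. The miR-106a-363 hairpins run from Mir106a at chrX:52742503-52742567 to Mir363 at chrX:52741693-52741767 on the minus strand. Mature miR-92a-3p is the same in Mir92-1 and Mir92-2, on chromosomes 14 and X, so its counts cannot be assigned to a locus. The same holds for miR-19b-3p. Mature miR-17-5p differs from miR-106a-5p by 1 base and from miR-20a-5p by 2, and how the authors' counting placed ambiguous reads is not given. Counts of these near-identical strands are therefore uncertain.

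Libraries held between 154002 and 272167 mouse counts in the tumors and between 297039 and 580390 in the oviducts. The 10 members took 0.878%, 1.32% and 2.42% of these in tumors 1, 2 and 3, against 0.691%, 0.682% and 0.779% in oviducts 1, 2 and 3. Such shares are by library totals and depend on the other strands of a library. Levels are in CPM, the library-size-scaled counts of edgeR, here with TMM factors (a trimmed mean of log ratios between libraries). These factors were 0.734, 1.33 and 1.49 in tumors 1, 2 and 3, and 0.855, 0.946 and 0.853 in oviducts 1, 2 and 3. Each count is a read credited to a named strand. Some pairs of names had equal values, such as miR-199a-3p and miR-199b-3p (mean 32951 CPM in the tumors for each). The same reads thus appear under more than 1 name, and such pairs enter the shares over all names. A floor of 3 counts corresponded to 12.9 to 15.1 CPM in the tumors and 5.48 to 11.9 CPM in the oviducts, for counting error only. The level of the multiciliated-cell list, a check of the oviduct label, was 422 to 1209 CPM in the tumors and 14867 to 21618 CPM in the oviducts, and 3 of its 5 tested microRNAs were called lower. Tumor 1 stood apart, with 22132 CPM of red-cell microRNAs, while tumors 2 and 3 had 3589 and 4726 CPM and the oviducts 8822 to 11126 CPM. This sum adds miR-486a-5p and miR-486b-5p, whose values were equal (mean 4792 CPM in the tumors for each). It thus counts their reads more than once and is too high in every library. The 4 smooth muscle strands of tumor 1 summed to 835521 CPM, while tumors 2 and 3 had 210587 and 94643 CPM and the oviducts 489781 to 557882 CPM. In bulk samples, fewer cells of a type and less RNA per cell cannot be told apart.

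**Figure D1:**
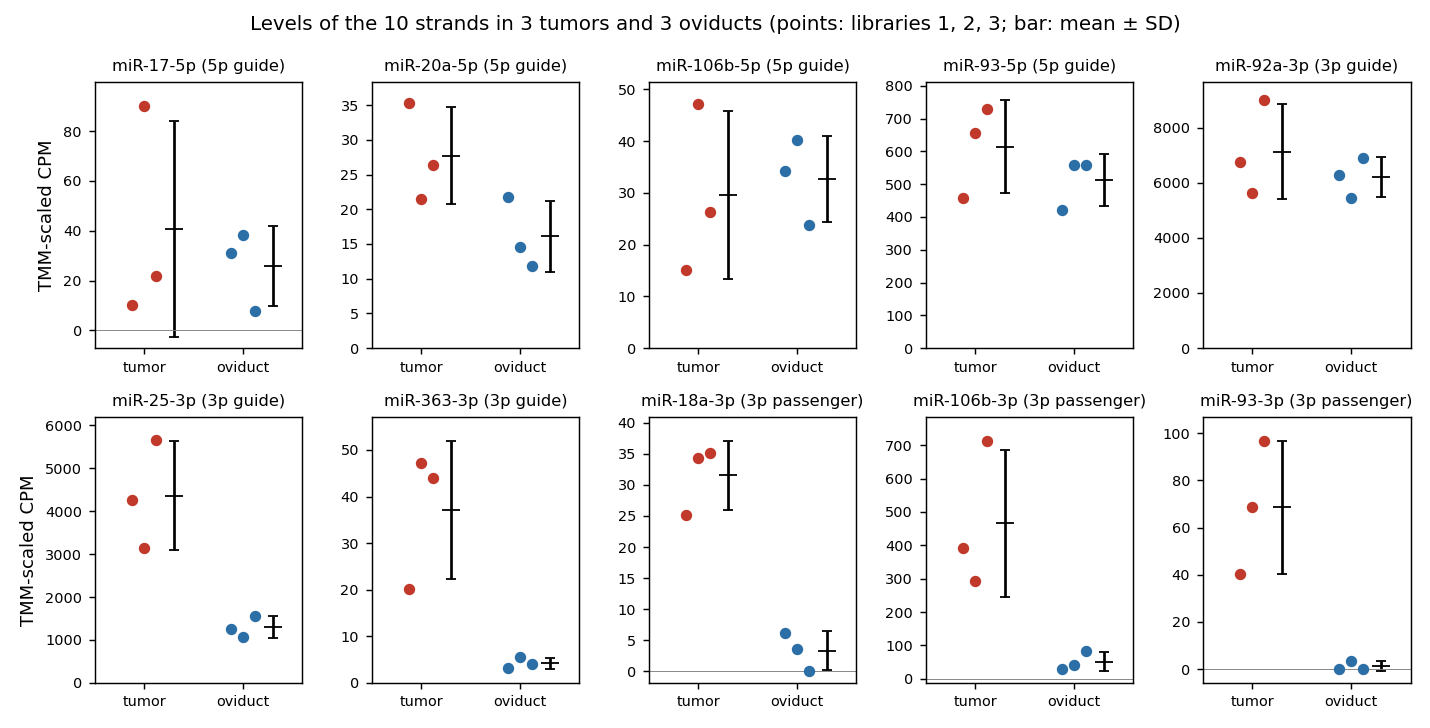
Level of each of the 10 strands in TMM-scaled CPM (vertical axis, a separate linear scale per panel) in 3 tumors and 3 oviducts, with points for libraries and a bar for mean ± SD (n = 3 each). The tumors lie above the oviducts for miR-25-3p, miR-363-3p, miR-18a-3p, miR-106b-3p and miR-93-3p, and the groups overlap for the other 5 strands.

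The guides on 5p arms were not called changed, while 2 strands from 3p arms were higher in the tumors. A low-count filter left 5 members to test, and edgeR called 2 of them higher, 0 lower and 3 not changed (quasi-likelihood test, adjusted p under 0.05 over 227 tested names). For all tested names, 26.9% were called higher and 25.6% lower, 52.4% in all. With identical rows kept once, 116 names were called, against 119. At an unadjusted p under 0.05 the count was the same 2 members. The called strands were miR-106b-3p and miR-25-3p, among 3p names of which 41.8% were called higher and 10% lower. The 3 that were not called were miR-106b-5p, miR-93-5p and miR-92a-3p. Among 5p names 2.11% were called higher and 48.4% lower, 50.5% in all. The groups did not overlap for the 2 called strands, as for 60.4% of all tested names. Tumor over oviduct, the log2 fold changes of the 227 names had a median of 0.20, which was -1.04 for the 95 5p names and 0.89 for the 110 3p names. The median of all names was 0.65 with library totals alone and -0.73 with TMM factors from 3p names, and the values under these scalings shift with it.

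**Figure D2:**
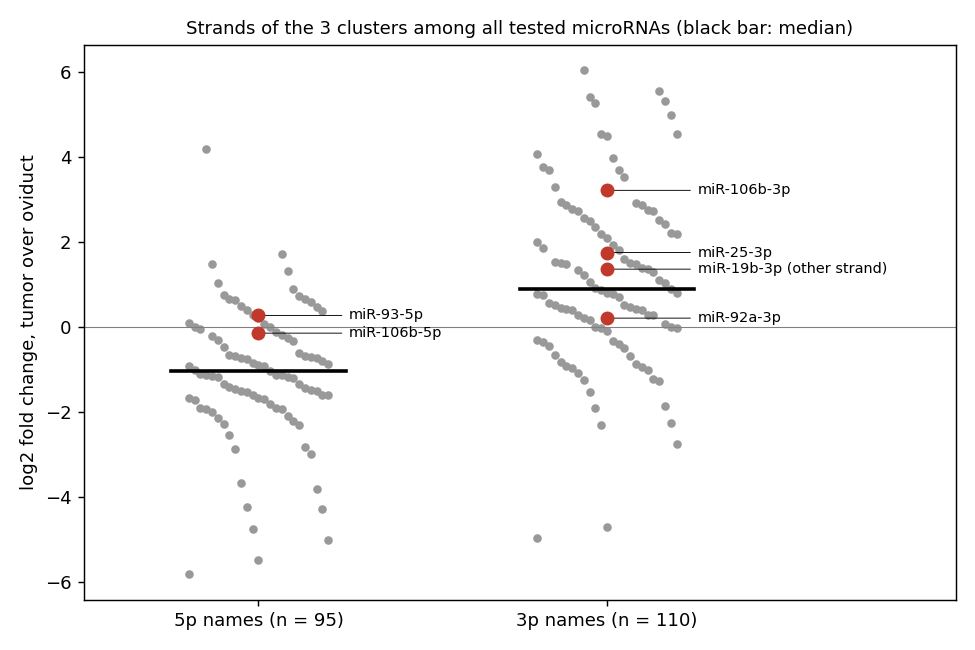
Log2 fold change (tumor over oviduct, vertical axis) of 95 tested 5p names and 110 tested 3p names, with a black bar at the median of each arm. The tested strands of the clusters are in red: miR-93-5p and miR-106b-5p lie above the 5p median of -1.04. On 3p arms, miR-106b-3p at 3.21, miR-25-3p at 1.74 and miR-19b-3p at 1.35 lie above the 3p median of 0.89. The most abundant member, miR-92a-3p at 0.20, lies below that median.

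Among guides on 5p arms, miR-93-5p was the most abundant. It had 458, 657 and 730 CPM in tumors 1, 2 and 3, against 421, 559 and 557 CPM in oviducts 1, 2 and 3. The groups overlapped, and the log2 fold change was 0.26 (SE 0.32, edgeR adjusted p = 0.497). For miR-106b-5p the levels were 15.1, 47.2 and 26.4 CPM in tumors 1, 2 and 3, against 34.3, 40.2 and 23.7 CPM in oviducts 1, 2 and 3. Tumor 2 was the highest and tumor 1 the lowest of the 6, and the log2 fold change was -0.15 (SE 0.49, edgeR adjusted p = 0.807). The direction of both strands depended on the scaling. With TMM factors from 3p names miR-93-5p was at -0.63, and with library totals alone miR-106b-5p was at 0.29, neither of them called.

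The 5p guides of miR-17-92 were counted only a few times. Strand miR-17-5p, which is known to repress Cdkn1a, had 2, 21 and 5 counts in tumors 1, 2 and 3, against 10, 21 and 2 in oviducts 1, 2 and 3. Its level was 40.7 ± 43.2 CPM in the tumors and 25.8 ± 15.9 CPM in the oviducts (SD, n = 3 each), with tumor 2, where the leukocyte list was also highest, far above the others. Strand miR-20a-5p had 7, 5 and 6 counts in the tumors and 7, 8 and 3 in the oviducts. Its level was 27.7 ± 6.99 CPM in the tumors and 16.1 ± 5.15 CPM in the oviducts (SD, n = 3 each), and the lowest tumor lay just below the highest oviduct. Neither passed the filter, which asked for 35.1 CPM by library totals in at least 3 libraries. A fit without the filter gave log2 fold changes of 0.30 (SE 0.69, edgeR adjusted p = 0.755) for miR-17-5p and 0.46 (SE 0.79, edgeR adjusted p = 0.657) for miR-20a-5p.

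Among guides on 3p arms, miR-25-3p rose and miR-92a-3p was not called. Strand miR-25-3p, encoded beside miR-93 and miR-106b, had 4270, 3138 and 5667 CPM in tumors 1, 2 and 3, against 1266, 1072 and 1569 CPM in oviducts 1, 2 and 3. The lowest tumor was above the highest oviduct, and the log2 fold change was 1.74 (SE 0.36, edgeR adjusted p = 0.00246), a 3.35-fold rise. It remained called in each of the 15 alternatives, and it was smallest, at 0.85 (edgeR adjusted p = 0.0422), with TMM factors from 3p names. Strand miR-92a-3p, the most abundant member, had 6768, 5624 and 9004 CPM in tumors 1, 2 and 3, against 6280, 5449 and 6894 CPM in oviducts 1, 2 and 3. The groups overlapped, with tumor 3 above the rest, and the log2 fold change was 0.20 (SE 0.29, edgeR adjusted p = 0.572). With TMM factors from 3p names it was called lower (log2 -0.70, edgeR adjusted p = 0.0483), so the direction of miR-92a-3p depended on the scaling.

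The third 3p guide, miR-363-3p, is the last of the X-linked cluster. It had 4, 11 and 10 counts in tumors 1, 2 and 3, against 1, 3 and 1 in oviducts 1, 2 and 3. Its level was 37.1 ± 14.8 CPM in the tumors and 4.18 ± 1.20 CPM in the oviducts (SD, n = 3 each), and the groups did not overlap. It did not pass the filter. Without a filter, where 10.7% of 919 names were called higher and 8.27% lower, it was called higher (log2 2.65, SE 0.92, edgeR adjusted p = 0.0244). The ratio of its pooled rates, tumor over oviduct, was 8.51 (exact Poisson 95% interval 3.20 to 28.5, for counting error only).

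The 3 member passengers, miR-106b-3p, miR-93-3p and miR-18a-3p, had higher CPM in every tumor than in any oviduct. Among all tested names the groups did not overlap for 60.4%, and only miR-106b-3p of these passengers was tested. Strand miR-106b-3p had 78, 68 and 162 counts in tumors 1, 2 and 3, against 9, 23 and 21 in oviducts 1, 2 and 3. These were 393, 292 and 712 CPM in the tumors, against 28.1, 42.0 and 83.0 CPM in the oviducts. Its log2 fold change was 3.21 (SE 0.55, edgeR adjusted p = 0.000959), a 9.24-fold rise, which was called in each of the 15 alternatives. The value was 2.31 with TMM factors from 3p names. Strand miR-106b-3p passed the filter through its tumor counts, since all 3 tumors and 2 oviducts reached its level.

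The passengers miR-93-3p and miR-18a-3p were too rare in the oviducts for the filter. Strand miR-93-3p had 8, 16 and 22 counts in tumors 1, 2 and 3, against 0, 2 and 0 in oviducts 1, 2 and 3. The ratio of its pooled rates was 39.1 (exact Poisson 95% interval 10.2 to 333, for counting error only), and the fit without a filter called it higher (edgeR adjusted p = 7.23e-06). Strand miR-18a-3p had 5, 8 and 8 counts in the tumors and 2, 2 and 0 in the oviducts. Its level was 31.6 ± 5.55 CPM in the tumors and 3.30 ± 3.13 CPM in the oviducts (SD, n = 3 each), and without a filter it was called higher (log2 2.72, SE 1.00, edgeR adjusted p = 0.0360). Summed, the 3 passengers held 458, 395 and 844 CPM in tumors 1, 2 and 3, against 34.3, 49.3 and 83.0 CPM in oviducts 1, 2 and 3. The 4 guides on 5p arms held 519, 816 and 805 CPM in the tumors, against 508, 652 and 601 CPM in the oviducts. Relative to these guides, the passengers were thus higher by 3.07 on the log2 scale, a description with no test. The sums do not hold the same hairpins. In the tumors the passenger sum was mainly miR-106b-3p (308 counts) and the guide sum mainly miR-93-5p (410 counts). The value therefore mostly compares strands of different hairpins.

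Within single hairpins the 5p to 3p ratio fell in miR-106b and miR-93, both 5p-guided. The ratio of 5p to 3p counts needs no scaling between libraries and limma tested it in 142 hairpins whose summed arms averaged 20 or more counts per library. Of the 13 hairpins of the clusters, 5 could be tested, and 2 fell, 0 rose and 3 were not called. For all tested hairpins, 48.6% fell and 3.52% rose, and the median log2 change was -1.53. The called hairpins were miR-106b and miR-93. Those not called were miR-25, miR-92a and miR-19b, all of them 3p-guided. In the oviducts miR-25 and miR-19b had 0 5p counts, so their 5p share could not fall. The miR-92a hairpin had 13, so a fall was possible, but its log2 change was 0.68 (SE 0.51, limma adjusted p = 0.274). With only miR-92a able to fall, these hairpins cannot show whether 3p-guided hairpins in general differ from 5p-guided ones in this respect.

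The miR-106b hairpin had the lower 5p share of the 2. The 5p strand took 3.70%, 13.9% and 3.57% of its counts in tumors 1, 2 and 3, against 55%, 48.9% and 22.2% in oviducts 1, 2 and 3. The oviducts thus had 39 5p counts beside 53 3p counts, about equal arms in a hairpin usually called 5p-guided, while the tumors had 20 beside 308. The change was -3.40 on the log2 scale (SE 0.86, limma adjusted p = 0.00264), which is 10.5-fold. The value was -4.06 without tumor 2, -4.01 without oviduct 3 and -2.80 with a pseudocount of 5, all still called.

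In the miR-93 hairpin the 5p strand remained the main product in both groups. It took 91.9% (exact Clopper-Pearson 95% interval 84.7 to 96.4), 90.5% (85.1 to 94.5) and 88.3% (82.8 to 92.5) in tumors 1, 2 and 3. The oviduct shares were 100% (97.3 to 100), 99.4% (97.7 to 99.9) and 100% (97.4 to 100), and the groups did not overlap. On the log2 scale the change was -4.54 (SE 0.69, limma adjusted p = 1.67e-05). Its size depends on the pseudocount, because the oviducts had 2 3p counts in all. It was -6.13 with a pseudocount of 0.1 and -2.23 with 5, called in both.

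**Figure D3:**
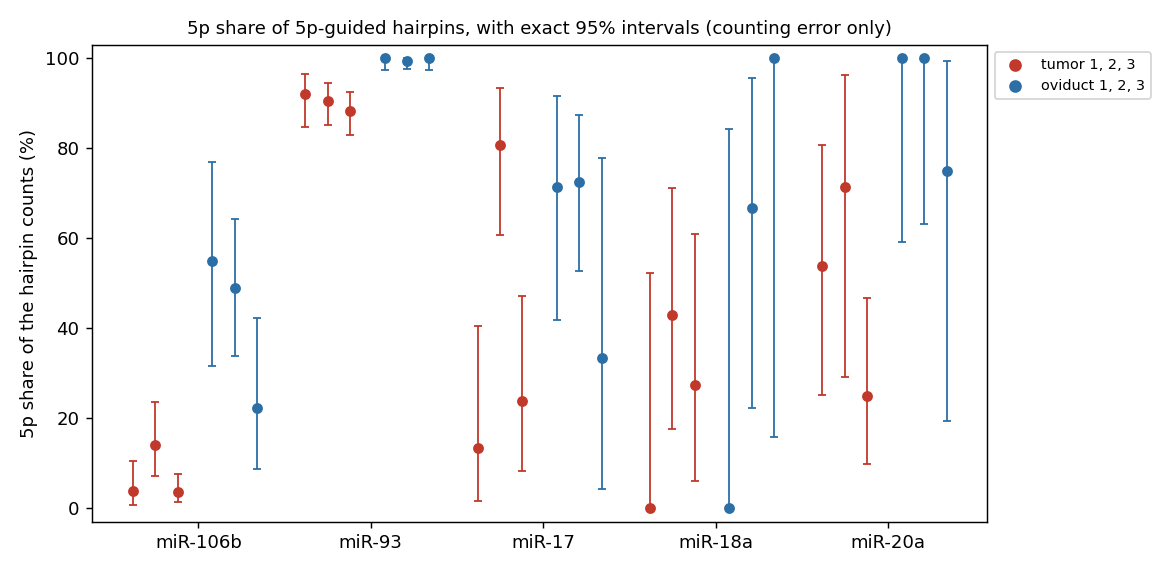
Share of 5p counts among all counts of 5 hairpins in percent (vertical axis), for tumors 1 to 3 and oviducts 1 to 3 from left to right, with exact 95% intervals for counting error only. The tumor shares of miR-106b, 3.57% to 13.9%, and of miR-93, 88.3% to 91.9%, lie below all oviduct shares, as do those of miR-20a, while miR-17 and miR-18a overlap.

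The 5p-guided hairpins of miR-17-92 had too few counts for that test and were tested with a lower minimum, summed arms averaging 5 or more counts per library, at which 43.4% of 189 hairpins fell. There miR-20a fell (log2 -3.13, SE 1.04, limma adjusted p = 0.0192). Its 5p and 3p counts summed to 18 and 26 in the tumors, against 18 and 1 in the oviducts. The tumors, with 5p shares of 25% to 71.4%, lay below the oviducts, with 75% to 100%. Neither miR-17 (log2 -1.25, SE 1.11, limma adjusted p = 0.389) nor miR-18a (log2 -1.99, SE 1.20, limma adjusted p = 0.203) was called. In miR-17 the 5p share was 13.3%, 80.8% and 23.8% in tumors 1, 2 and 3, against 71.4%, 72.4% and 33.3% in oviducts 1, 2 and 3, so that tumor 2 was the highest of all. In miR-18a the 5p and 3p counts were 9 and 21 in the tumors and 6 and 4 in the oviducts, too few to say which arm led.

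In the 3p-guided hairpins the 5p strand was hardly counted in either group. For miR-25 there was 1 5p count beside 2868 3p counts in the tumors and 0 beside 1390 in the oviducts, a share of 0% (exact Clopper-Pearson 95% interval 0 to 0.265). For miR-92a the 5p counts were 17 beside 4702 in the tumors and 13 beside 6743 in the oviducts, with a log2 change of 0.68 in their ratio (SE 0.51, limma adjusted p = 0.274). The miR-19b hairpins had 1 5p count beside 135 in the tumors and 0 beside 87 in the oviducts, and miR-363 had 0 in both groups. The sign of the change of the miR-25 and miR-19b ratios turned with the pseudocount.

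Counting both arms together, more hairpins of the clusters were higher than lower. Of 7 hairpins tested with edgeR on their summed arms, 5 were higher, 0 lower and 2 not called, where 22.4% of 161 hairpins were called higher and 18% lower. Among the 5, miR-20a passed the filter through its tumor counts, which were 13, 7 and 24 in tumors 1, 2 and 3. Oviducts 1, 2 and 3 had 7, 8 and 4 counts of it. The total of miR-106b was 495 ± 214 CPM by strand scaling in the tumors and 83.7 ± 22.2 CPM in the oviducts (SD, n = 3 each), with a log2 change of 2.75 (SE 0.41, edgeR adjusted p = 0.00146). That of miR-25 rose as well (log2 1.93, SE 0.33, edgeR adjusted p = 0.00262). Their neighbour miR-93 was not called (log2 0.60, SE 0.28, edgeR adjusted p = 0.116), nor was miR-92a (log2 0.39, SE 0.27, edgeR adjusted p = 0.243). The median of all hairpin totals was 0.20. The totals of miR-25 and miR-19b were almost wholly their 3p strands, so they add no separate evidence to the strand levels. They hold nearly the same reads under another scaling and set of features. The level of miR-19b-3p itself was not called (edgeR adjusted p = 0.0534).

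Rises in the totals of miR-17, miR-20a and miR-19b were less firm. They were 1.39 (SE 0.43, edgeR adjusted p = 0.0347) for miR-17, 2.12 (SE 0.53, edgeR adjusted p = 0.0138) for miR-20a and 1.57 (SE 0.50, edgeR adjusted p = 0.0364) for miR-19b on the log2 scale. The call of miR-17 was lost in 10 of 12 alternatives, among them each oviduct left out (adjusted p = 0.127, 0.0923 and 0.145 without oviducts 1, 2 and 3), and tumor 2 or tumor 3 (0.0884 and 0.0726). That of miR-20a was lost without any oviduct and without the low-count filter (0.0658), with adjusted p = 0.0513, 0.0902 and 0.0645 without oviducts 1, 2 and 3. That of miR-19b was lost without tumor 1, oviduct 2 or oviduct 3 (0.0783, 0.156 and 0.119) and without the filter (0.0772).

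**Figure D4:**
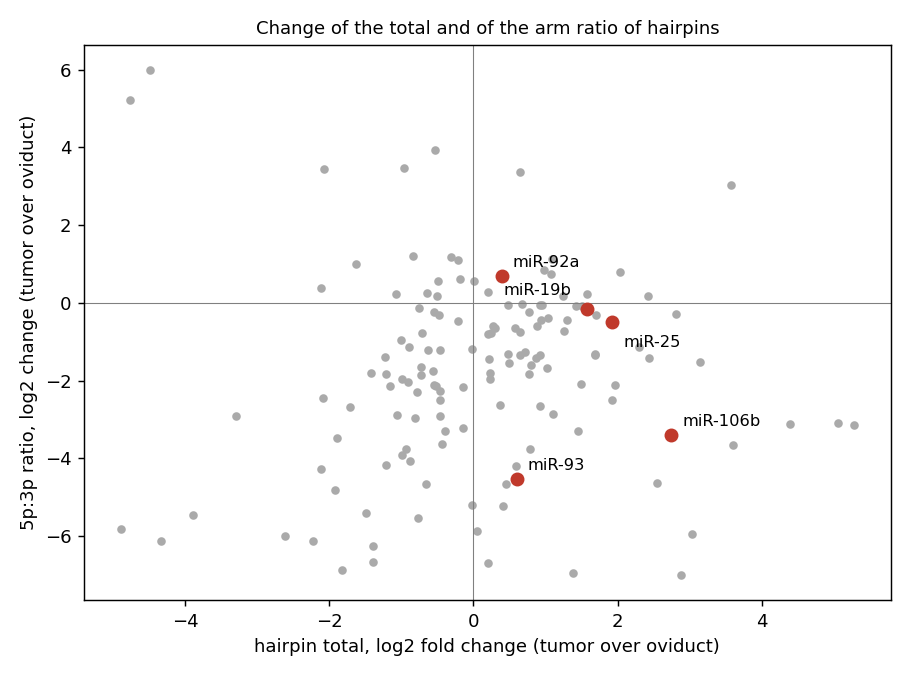
Log2 change of the total of both arms (horizontal axis) and of the 5p:3p ratio (vertical axis), tumor over oviduct, for 142 hairpins, with the tested hairpins of the clusters in red. Vertically, miR-106b lies at -3.40 and miR-93 at -4.54, miR-92a at 0.68, and miR-25 and miR-19b at values that rest on at most 1 5p count per group.

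Strands of a shared transcript were then set against each other within each library, since such ratios need no scaling. With 3 against 3 the smallest p of the two-sided exact permutation test is 0.1, so no pair could pass 0.05. For miR-106b-5p over miR-25-3p the log2 ratio was -7.92, -5.99 and -7.63 in tumors 1, 2 and 3, against -5.14, -4.71 and -5.93 in oviducts 1, 2 and 3. The tumors lay below the oviducts, with tumor 2 next to oviduct 3, and the difference was -1.92 (exact permutation p = 0.1, adjusted 0.2 over 4 pairs). It was -2.52 without tumor 2. For miR-93-5p over miR-25-3p it was -3.21, -2.25 and -2.95 in the tumors, against -1.58, -0.94 and -1.49 in the oviducts. All 3 tumors were lower, by -1.47 on average (exact permutation p = 0.1, adjusted 0.2). Over all tested names the median log2 fold change was -1.04 for 5p names and 0.89 for 3p names. A lower ratio of a 5p to a 3p strand was thus not particular to these pairs.

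In the miR-17-92 cluster the ratios overlapped. Because miR-92a-3p is also encoded in the miR-106a-363 cluster, its counts in these ratios may come from both transcripts. The log2 ratio of miR-17-5p to miR-92a-3p was -7.85 ± 1.68 in the tumors and -8.05 ± 1.23 in the oviducts (SD, n = 3 each, exact permutation p = 0.9, adjusted 0.9). Its difference of 0.20 turned to -0.76 without tumor 2 and to -0.50 without oviduct 3. That of miR-20a-5p to miR-92a-3p was -7.89 ± 0.41 in the tumors and -8.50 ± 0.45 in the oviducts (SD, n = 3 each, exact permutation p = 0.2, adjusted 0.267). All 4 of these ratios rest on 5p counts between 2 and 306 per library.

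**Figure D5:**
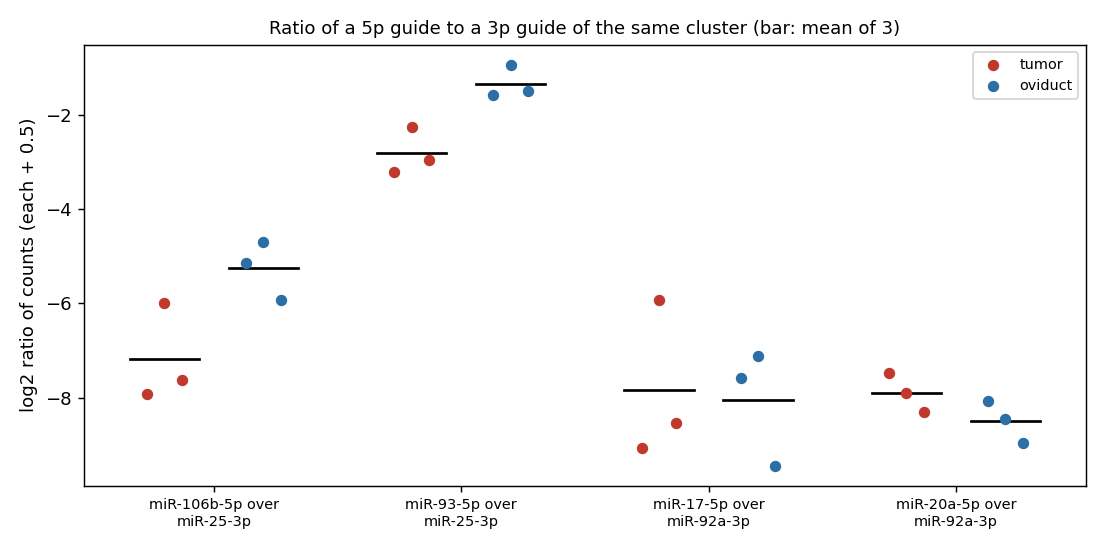
Log2 ratio of a 5p guide to a 3p guide of the same cluster (vertical axis, counts with 0.5 added) in each tumor and oviduct, with a bar at the mean of 3. The guide miR-92a-3p is also encoded in the miR-106a-363 cluster. Tumors lie below oviducts for the pairs with miR-25-3p, at means of -7.18 against -5.26 and -2.81 against -1.34, and the groups overlap for the pairs with miR-92a-3p.

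Of the 18 other strands of the clusters, 12 had a count and 1 could be tested. This was miR-19b-3p, a 3p guide encoded in both the miR-17-92 and the miR-106a-363 cluster. It had 277, 142 and 207 CPM in tumors 1, 2 and 3, against 125, 56.6 and 63.2 CPM in oviducts 1, 2 and 3. The tumors were all higher, but the log2 fold change of 1.35 (SE 0.53, edgeR adjusted p = 0.0534) was not called. DESeq2 called it (adjusted p = 0.0262), as did edgeR with library totals alone, with upper-quartile factors and without tumor 2 (0.0433, 0.0333 and 0.0347). The other 11 of 15 alternatives did not call it. It was smallest, at 0.45 (edgeR adjusted p = 0.483), with TMM factors from 3p names.

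The remaining strands were rare. The passenger miR-20a-3p had 6, 2 and 18 counts in tumors 1, 2 and 3, against 0, 0 and 1 in oviducts 1, 2 and 3, a ratio of pooled rates of 44.2 (exact Poisson 95% interval 7.27 to 1814, for counting error only). The passenger miR-17-3p had 13, 5 and 16 counts in the tumors and 4, 8 and 4 in the oviducts, all tumors lying above the oviducts in CPM, and without a filter it was not called (edgeR adjusted p = 0.158). The X-linked guide miR-20b-5p had 5 counts in the tumors and 0 in the oviducts. The guide miR-19a-3p had 9 counts in the tumors and 5 in the oviducts, and miR-20b-3p had 2 in the tumors and 0 in the oviducts. The strands miR-18a-5p, miR-92a-1-5p, miR-25-5p and miR-19b-1-5p are the arms counted in the ratios of their hairpins above. The strands of miR-106a had 1 count each, both in tumor 2. Both strands of miR-18b, miR-19a-5p, miR-19b-2-5p, miR-92a-2-5p and miR-363-5p, 6 in all, had 0 counts in all libraries, for which the floor of 3 counts allows up to 5.48 to 15.1 CPM.

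The seed AUUGCAC is also carried by 3 strands from other loci, which bear on how much of that seed the cells held. One of them, miR-92b-3p, differs from miR-92a-3p by 3 edits and is shown for comparison with the sequence of miR-92a-3p above (RefSeq, GRCm38.p6, chr3:89227126-89227147).
miR-92b-3p: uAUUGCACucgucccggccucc
It had 65, 32 and 36 counts in tumors 1, 2 and 3, against 2035, 3396 and 1753 in oviducts 1, 2 and 3, a log2 fold change of -4.97 (SE 0.45, edgeR adjusted p = 2.47e-05). It made up 1.72% of the counts with this seed in the tumors and 46.9% in the oviducts. Summed over the 6 strands with the seed, the level was 11391, 8982 and 14881 CPM in the tumors, against 13901, 12734 and 15405 CPM in the oviducts. The groups overlapped in this sum, although miR-25-3p rose. The others were miR-32-5p, with 11 counts in the tumors and 9 in the oviducts, and miR-367-3p with 0. The 6 strands with the seed AAAGUGC held 524, 829 and 813 CPM in the tumors, against 508, 652 and 601 CPM in the oviducts.

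By profile, the tested microRNAs outside the clusters most like miR-25-3p were miR-30c-2-3p, miR-652-3p and miR-30e-3p. Likeness was the Euclidean distance of log2 CPM centred on its own mean over the 6 libraries, and these distances were 0.578, 0.580 and 0.593 among 221 compared. For miR-17-5p the nearest were miR-146a-5p, miR-16-5p and miR-339-5p, at 1.25, 1.40 and 1.40, a looser likeness in a strand of 2 to 21 counts.

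Some cell-type lists also differed between the groups. Endothelial microRNAs (both strands of miR-126a) summed to 15198 to 20197 CPM in the tumors and 7146 to 9548 CPM in the oviducts, and both were called higher. Leukocyte microRNAs summed to 743 to 4997 CPM in the tumors, highest in tumor 2, and to 1091 to 1765 CPM in the oviducts, with 0 of 5 called by edgeR or DESeq2 and 1 at an unadjusted edgeR p under 0.05. Of 5 red-cell microRNAs 3 were tested, among them miR-486a-5p and miR-486b-5p with equal values, and 1 was called higher. Epithelial microRNAs summed to 3857 to 7015 CPM in the tumors and 6941 to 11969 CPM in the oviducts, with 1 of 5 called lower, and of the 4 smooth muscle strands 2 were called lower. Their part in the levels of the cluster strands was not tested. With tumor 1 left out, miR-25-3p was called (log2 1.53, edgeR adjusted p = 0.00711), as was miR-106b-3p (log2 3.10, edgeR adjusted p = 0.000983). Leaving out a library does not test the part of any cell type.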

How the data were processed

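Total RNA of 3 tumors and 3 oviducts was isolated with a miRNeasy kit and made into libraries with a TruSeq small RNA kit, per the labels' protocols. Cutadapt removed adapters, per the submitters' processing notes, and trimmed reads were counted from BAM files, per the file headers. Aligner, counting program, microRNA reference and build: not given in the sources used here. The deposited values are raw counts per mature microRNA. The 67 names of other species, with 10 counts in all, were left out. Of 4 tumors and 5 oviducts in the series text, 3 of each kind were analysed. No label ties the samples to different animals, and the spread behind the p-values may thus be technical. Header tags differed between tumors and oviducts, so anything they mark cannot be told apart from the groups.

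Levels and hairpin totals were tested with edgeR 4.0.16 (filterByExpr, minimum count 10, TMM, robust quasi-likelihood) in R 4.3.3, over all mouse names. CPM used the counts of the 227 tested names, 99.3% to 99.8% of each library, as library size. Arm ratios, log2 of (5p + 0.5) over (3p + 0.5), were tested with limma 3.58.1 (robust, trend on the mean log total). Copy-numbered names were pooled. Tests were two-sided, with Benjamini-Hochberg adjustment over all features tested and a threshold of 0.05. Alternatives included DESeq2 1.42.0. The tests were checked on simulated counts. Reads carry no molecular identifiers, so intervals and floors cover counting error alone. Positions and sequences came from RefSeq (GRCm38.p6) and host genes from GENCODE M21 on GRCm38. The strands named were the members, the other strands of the clusters and their relatives by seed. Likeness was computed for miR-17-5p and miR-25-3p, 3 names each. The members, lists and rules were chosen with earlier results of these data known.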

Additional observations from a re-analysis of the deposited data

How the results depend on the processing

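The counts of calls over all features stayed within 1.5 times under every alternative: 98 to 174 against 119 for levels, 54 to 89 against 74 for arm ratios and 47 to 92 against 65 for hairpin totals. The rises of miR-25-3p and miR-106b-3p, the falls of the miR-106b and miR-93 ratios and the rises of the miR-106b and miR-25 totals kept their direction and call in all of them. The totals were not run with upper-quartile factors or with TMM factors from 3p names, the scaling that gave miR-25-3p its smallest value. Some of the differences that were not called changed sign. For miR-92a-3p the log2 value was -0.12 without a low-count filter, -0.094 at a mean of at least 10 CPM, -0.70 with TMM factors from 3p names, where it was called lower (edgeR adjusted p = 0.0483), and -0.098 to 0.40 with single libraries left out. For miR-93-5p it was -0.076, -0.027, -0.63 and -0.15 to 0.28 in the same settings, and for miR-106b-5p it was 0.29 with library totals alone. The ratio of miR-19b was 0.45 with a pseudocount of 0.1, 0.62 by the edgeR interaction and -0.53 to 0.21 with libraries left out, and that of miR-25 was 0.13 and 0.21 with the first and second of these. The ratio of miR-17-5p to miR-92a-3p ranged from -0.76 to 0.81. The summed 5p guides over the summed 3p guides differed by -0.33, and by -1.47 without miR-92a-3p, an alternative chosen after seeing the data, as were the class sums with libraries left out (-0.62 to -0.14) and limma without trend. The cause was not tested. Same-numbered samples did not deviate together (r = -0.0455, 0.0897 and -0.136 for numbers 1, 2 and 3). The replicate block gave 108, 69 and 50 calls for levels, ratios and totals, and among the clusters it ended the call of the miR-17 total (adjusted p = 0.0546). The 5 members below the filter had 2 to 46 counts per group, which limits the precision of their values. The miR-19b ratio has no value at a minimum mean total of 50 counts, which it did not reach.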
